A study of Mus musculus with 48 samples.

Results

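The 16 caecum arrays of a mouse feeding study fell into 2 sets by the level of Defa1, a gene for an alpha-defensin of Paneth cells. A log2 normalized intensity of Defa1 above 11 put 9 arrays in the high set, and the other 7 formed the low set. An array is named here by its group and the number of the mouse. The high set held Ctr2-2, Ctr1-2, STL-3, Chic-2, Fru-3, Ctr2-1, STL-2, Chic-1 and CGA-3, in falling order of Defa1, and the low set held Fru-2, STL-1, Ctr1-1, CGA-1, CGA-2, Chic-3 and Fru-1. The arrays of each set were chosen by this measured level of Defa1, so all differences between them are given as descriptions, with no test.

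The whole series had 48 arrays, 16 each for liver, ileum enterocytes and caecum. BALB/cOlaHsd mice, 8 weeks old at the start, received 500 µL by gavage every day for 30 days beside their chow. Chic was a decoction of 30 mg of chicory root powder, Fru a fructose solution, CGA a solution of chlorogenic acids and STL a solution of sesquiterpene lactones, with 3 mice each. Ctr1 (2 mice) received water and was fed in parallel with Chic and Fru (the water series), and Ctr2 (2 mice) was fed in parallel with CGA and STL in another period (the DMSO series). The labels give water for Ctr2 as well, while the methods give dimethyl sulfoxide. The methods and the source names in the labels give male mice, while a sex tag in the same labels marks 8 of the 16 caecum arrays as female. The labels call the tissue caecum, while the design text speaks of a cut segment of colon. A marker of the large bowel was near the top of the scale on every array: Car1, carbonic anhydrase 1 of the large-bowel epithelium, lay between 13.80 and 15.37 in the high set and between 14.07 and 15.54 in the low set.

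Paneth cells sit at the base of the crypts of the small intestine and release alpha-defensins, lysozyme and a secreted phospholipase into the lumen. In the healthy mouse they are a cell of the small intestine and not of the caecum. Enterocytes of the last stretch of the ileum, which opens into the caecum, take up bile acids with an apical transporter (Slc10a2), carry them on the protein of Fabp6 and pass them to the blood through Slc51a and Slc51b. Brush-border peptidases such as those of Anpep and Enpep are also abundant on small-intestinal enterocytes.

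The genes outside the defensin family that went with Defa1 included that of the bile acid carrier. The promoters of 3 of them are shown because the genes stood at different ranks of the contrast: Fabp6 with the widest difference, Lgals2 with the next and Slc3a1 with the smallest among the genes whose sets did not overlap. Each run is 300 bases, from 250 before to 50 after the start of transcription, 5′ to 3′ in the direction of the gene, from RefSeq on GRCm38.p6. Capitals mark matches, on either strand, to a box of the letters TATAAA near which transcription starts, to AGATAA as bound by factors of the GATA family, to GTTAAT as a core of HNF1 sites, to CAAAGTCCA as bound by HNF4, and to the inverted repeat of Fabp6 that is bound by FXR, the bile acid receptor. A match on the other strand reads TTTATA for the first motif and ATTAAC for the HNF1 core.
Fabp6, chr11:43601513-43601812, minus strand: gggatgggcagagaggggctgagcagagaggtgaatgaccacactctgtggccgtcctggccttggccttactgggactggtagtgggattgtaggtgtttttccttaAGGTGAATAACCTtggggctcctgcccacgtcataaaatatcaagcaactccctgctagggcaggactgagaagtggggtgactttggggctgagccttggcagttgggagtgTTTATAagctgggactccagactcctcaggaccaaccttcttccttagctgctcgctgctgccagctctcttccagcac
Lgals2, chr15:78855480-78855779, minus strand: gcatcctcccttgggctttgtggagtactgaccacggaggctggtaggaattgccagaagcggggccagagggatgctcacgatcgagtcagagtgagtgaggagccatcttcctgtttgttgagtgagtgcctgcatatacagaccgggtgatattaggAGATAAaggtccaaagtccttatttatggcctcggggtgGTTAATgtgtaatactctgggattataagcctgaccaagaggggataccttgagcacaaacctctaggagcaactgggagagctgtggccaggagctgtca
Slc3a1, chr17:85028097-85028396, plus strand: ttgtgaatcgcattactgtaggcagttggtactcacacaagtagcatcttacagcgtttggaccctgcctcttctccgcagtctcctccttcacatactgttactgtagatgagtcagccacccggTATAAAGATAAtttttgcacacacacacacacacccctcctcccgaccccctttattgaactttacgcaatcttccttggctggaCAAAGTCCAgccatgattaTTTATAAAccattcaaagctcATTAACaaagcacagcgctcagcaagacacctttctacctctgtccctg

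In Fabp6 the inverted repeat began 142 bases before the start, and TATAAA lay on the other strand, 29 bases before the start. The letters of that repeat were taken from this gene, and 1 of 32851 promoters in the table held them (0.00304%). In Slc3a1 the first TATAAA shared letters with the GATA motif, a further pair on opposite strands overlapped nearer the start, and the HNF4 motif began 39 bases before it. Lgals2 held the GATA motif and the HNF1 core, 90 and 51 bases before the start. Of all promoters in the table, 13.6% held TATAAA, 11.2% AGATAA, 7.1% GTTAAT and 0.475% CAAAGTCCA. Of 11 genes looked up, 9 had an entry in the table. A match is a description of letters only.

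The level of Defa1 was between 11.35 and 14.92 in the high set, with a median of 13.87. In the low set it was between 4.93 and 10.02, with a median of 6.99. The array just inside the limit was CGA-3 at 11.35 and the one just outside was Fru-2 at 10.02. As deposited, Defa1 had an intensity of 3458 to 28629 in the high set and of 24 to 318 in the low set. Fru-2 had an intensity of 214 on an array whose median was 198, the lowest median of the 16, and the normalization raised the values of that array the most.

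Array medians were between 505 and 1410 in the high set and between 198 and 1704 in the low set. Of the 4 arrays whose median lay more than 0.5 (log2) under that of the tissue, 3 were in the low set (Fru-2, CGA-2 and Chic-3) and 1 in the high set (STL-3). The array Ctr1-2, of the high set, held no value under 300, while the lowest values of the others were between -6 and 35. Of the 5987 rows kept, 0 lay under 300 on Ctr1-2, against 57 to 3732 on each of the other arrays. A gene dim on Ctr1-2 is thus not in the table, while a gene dim on all low arrays can be, as Defa1 and Pla2g2a were. Counts of genes higher and of genes lower in the high set cannot be set against each other for that reason. In 44 genes 1 array lay at least 3 (log2) below every other, and Ctr2-2 and Fru-2 each gave 12 of these and Ctr1-2 gave 10. Those of Ctr1-2 were not near-empty readings, since normalization took values just above 300 on that array to the low end of the scale. For Fos, 310.9 on Ctr1-2 became 6.82, while 319.4 on Ctr2-2 became 7.99. These features touch the values of single genes below and are given beside them.

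The split crossed the labelled groups. Each diet group but Ctr2 had arrays in both sets: 1 of 2 for Ctr1, 2 of 3 for Chic and for STL, and 1 of 3 for Fru and for CGA were high, while both Ctr2 arrays were high. A two-sided Fisher's exact test of the split gave p = 0.887 against diet group, p = 1 against series (4 of 8 high in the water series and 5 of 8 in the DMSO series), p = 1 against the sex tag and p = 0.545 against the number of the mouse. After adjustment over the 4 relations each p was 1.

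Of 3777 genes, 15 (0.397%) had all 9 high arrays above all 7 low arrays. The rule used this contrast, and the rows have the minimum on Ctr1-2 given above, so nothing is read from that share or from the difference between the directions. Of these, 9 belonged to the alpha-defensin family, and the other 6 were Pla2g2a, Anpep, Ccl25, Gzma, Suox and Slc3a1. On the values as deposited, 3 of the 6 kept no overlap (Pla2g2a, Anpep and Ccl25), and with a common 75th percentile 5 did, all but Slc3a1. In the opposite direction 0 genes (0%) had all high arrays below all low arrays. By size, 30 genes (0.794%) had a mean over 1 (log2) higher in the high set, 10 of them defensins, and 7 genes (0.185%) a mean over 1 lower. The middle of the distribution was narrow: the median difference over all genes was -0.04, and 95% of the genes lay between -0.45 and 0.41. Ratios below are ratios of geometric means, from differences of mean log2 values, and each difference has its standard error (SE) for 9 and 7 arrays.

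**Figure D1:**
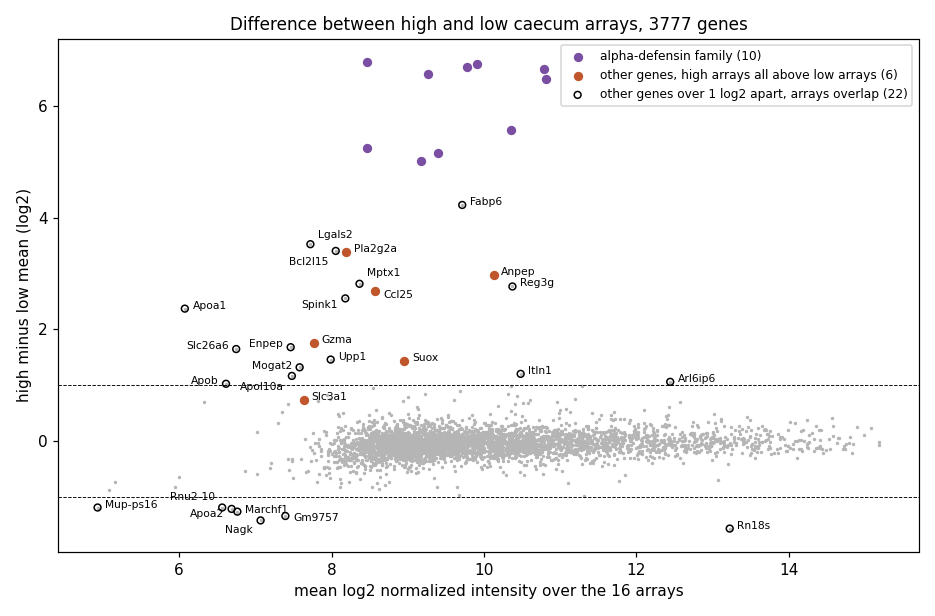
Each of 3777 genes by its mean log2 normalized intensity over the 16 caecum arrays (horizontal) and by the difference of the high and low means (vertical, log2), with dashed lines at 1 and -1. Most genes lie in a flat band around -0.04, the defensins and 20 other genes stand above 1, and 7 genes below -1, of which all but Rn18s are at the dim end.

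Fabp6, which encodes the ileal bile acid carrier, had the widest difference outside the defensins. Its log2 level was between 9.58 and 13.09 in the high set (median 11.64) and between 6.38 and 10.02 in the low set (median 7.02). Only Fru-2, at 10.02, reached into the high set, above CGA-3 at 9.58, and the other 8 high arrays were above every low array. The means were 11.56 ± 1.09 (SD, n = 9) and 7.34 ± 1.26 (SD, n = 7), a difference of 4.23 (SE 0.60) or 18.7-fold. As deposited, Fabp6 was between 1115 and 8177 in the high set and between 36 and 213 in the low set, and the intensities of Fru-2 and STL-1 were both 213. The difference was 4.50 within the water series and 4.02 within the DMSO series. In a bulk sample, more cells of a type and more RNA per cell cannot be told apart, which holds for every gene given here.

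Products of Paneth cells other than defensins had differences from 3.39 down to -0.03. Pla2g2a, the secreted phospholipase of Paneth cell granules, was between 8.66 and 10.86 in the high set (median 9.73) and between 5.83 and 7.03 in the low set (median 6.12). No low array came within 1 log2 unit of the lowest high array, STL-2. The difference of 3.39 (SE 0.33) was 10.5-fold, with 3.87 in the water series and 2.92 in the DMSO series. Mptx1, a mucosal pentraxin, was between 8.56 and 10.46 in the high set and between 4.75 and 9.34 on 6 low arrays, since its value on Chic-3 was not above 0 and was dropped. The low array Ctr1-1 (9.34) overlapped the high set, and 6 high arrays lay above it. The difference was 2.82 (SE 0.76). Itln1, the lectin intelectin 1, was between 10.04 and 11.91 in the high set and between 8.60 and 11.08 in the low set, a difference of 1.21 (SE 0.35). Lyz1, the lysozyme of Paneth cells, overlapped more, with 9.29 to 11.83 against 9.15 to 10.66 and a difference of 0.69 (SE 0.31). Of the 27 genes of the Paneth list other than defensins, 6 were measured, 3 were over 1 higher and 1 did not overlap. Over all genes, 0.794% were over 1 higher and 0.397% had all high arrays above all low ones. Guca2b (0.30) and Nupr1 (-0.03) were within the band of most genes.

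**Figure D2:**
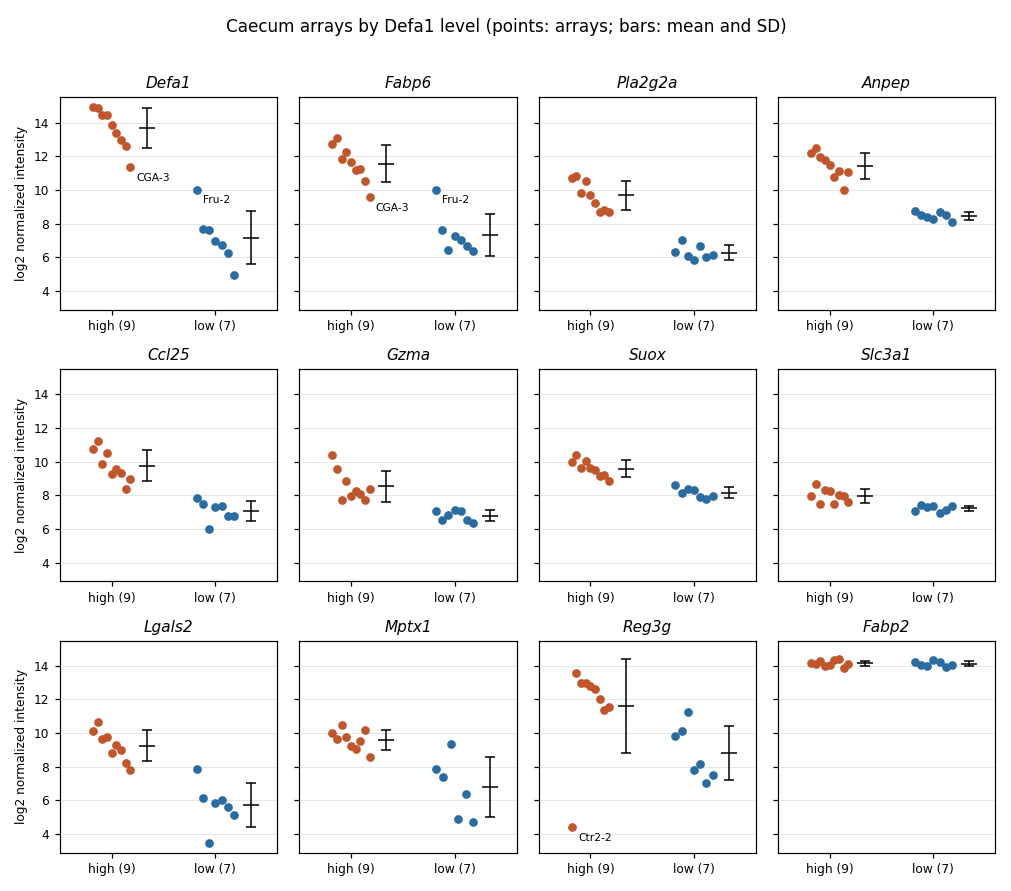
Log2 normalized intensity of 12 genes on the 9 high and 7 low caecum arrays (points, each set from left to right in falling order of Defa1), with the mean and SD of the set beside them. Pla2g2a, Anpep, Ccl25, Gzma, Suox and Slc3a1 separate the sets, Fru-2 is the single low array among the high ones for Fabp6, Ctr2-2 is the single low point of the high set for Reg3g, and Fabp2 is level at about 14.1.

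Among genes of the enterocyte brush border, Anpep, aminopeptidase N, had the widest difference. Its highest value in the high set was 12.46 and its median there 11.48, and it lay between 8.07 and 8.73 in the low set (median 8.52). The low arrays thus lay within 1 log2 unit of each other, and the lowest high array, Chic-1, had a deposited intensity of 1187, against 74 to 557 in the low set. The means were 11.42 ± 0.77 (SD, n = 9) and 8.46 ± 0.23 (SD, n = 7), a difference of 2.97 (SE 0.27) or 7.82-fold, with 3.00 and 2.92 in the water and DMSO series. Enpep, aminopeptidase A, was 1.68 higher (SE 0.51), with 6 high arrays above every low array, and this difference was uneven, at 2.78 in the water series and 0.43 in the DMSO series. Mep1b, the beta subunit of the protease meprin, was between 10.99 and 12.23 against 10.38 and 11.21, a difference of 0.75 (SE 0.17). Its partner Mep1a did not move with the split, with a difference of -0.04 (SE 0.09) around a level of 11.8. Slc3a1, a subunit of the transporter of cystine and basic amino acids, was between 7.46 and 8.68 against 6.95 and 7.43. Its sets did not overlap, but the difference was only 0.74 (SE 0.15) or 1.67-fold, and the lowest high array, STL-3, was within 0.1 of the highest low array.

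Genes of bile acid handling and fat absorption varied. Slc51b, the beta subunit of the basolateral bile acid transporter, was 0.83 higher (SE 0.19), with 7 of 9 high arrays above every low array, and Slc51a was 0.57 higher. Slc10a2, the apical transporter, was at 9.62 ± 0.32 (SD, n = 9) and 9.34 ± 0.81 (SD, n = 7), a difference of 0.28 (SE 0.32) that had opposite signs in the series (0.90 and -0.39). Apoa1, an apolipoprotein that enterocytes and hepatocytes secrete, was dim and 2.37 higher (SE 0.65), with 5 high arrays above every low one. Apob, the protein of chylomicrons, was 1.03 higher (SE 0.56), 1.78 in the water series and 0.24 in the DMSO series. Mogat2, an enzyme that rebuilds triglycerides in enterocytes, was 1.32 higher (SE 0.39), and 8 of 9 high arrays were above every low array. Khk, fructokinase, had the lowest difference of the enterocyte list at -0.44. Its level was 10.23 on Fru-2, from a deposited intensity of 261, and between 8.36 and 9.03 on the other low arrays.

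Fabp2, the fatty acid carrier of enterocytes, showed no such separation: its levels were between 13.89 and 14.41 in the high set and between 13.94 and 14.32 in the low set, with a difference of 0.02 (SE 0.08). S100g, a calcium-binding protein of enterocytes, had its highest values in both sets at about the same level, 12.67 and 12.57, and a difference of -0.19 (SE 0.45). Of the 80 genes of the small-intestinal enterocyte list, 36 were measured. Of these, 26 had a difference above 0, 6 were over 1 higher (Fabp6, Anpep, Reg3g, Apoa1, Enpep and Apob), 1 did not overlap and 0 were over 1 lower. Over all 3777 genes, 0.794% were over 1 higher, 0.397% had all high arrays above all low ones, and 0.185% were over 1 lower. Members dim on Ctr1-2 are missing from these counts. The median of the list was 0.28, against -0.04 over all genes, and it was 0.34 in the water series and 0.09 in the DMSO series.

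**Figure D3:**
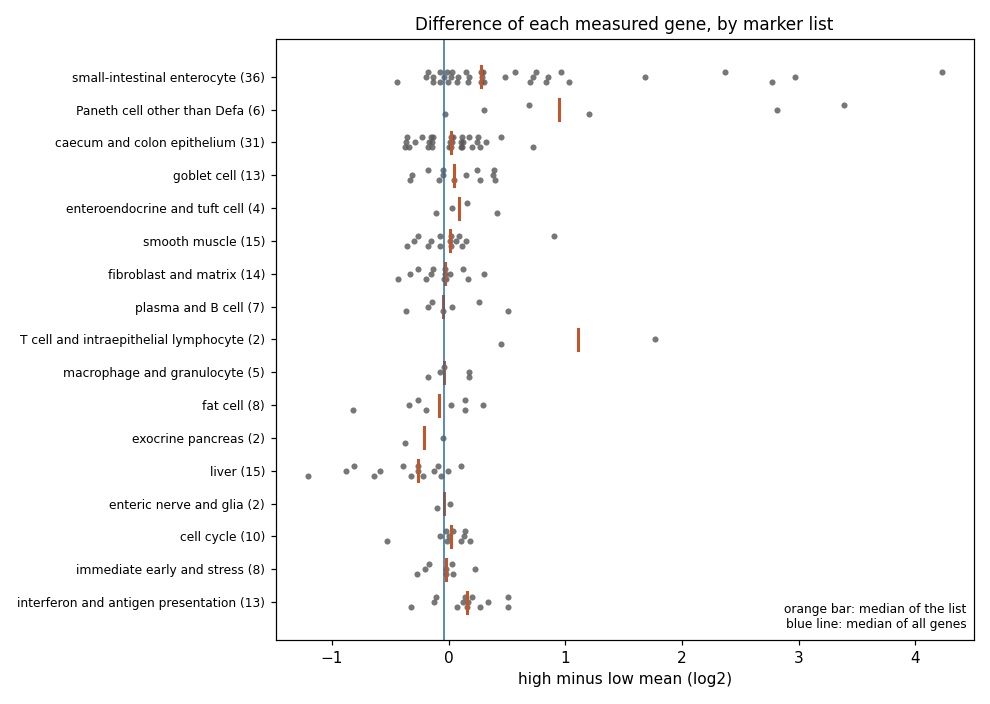
The difference of high and low means (log2) of each measured gene, by marker list, with the number measured in parentheses, the list's median as an orange bar and the median of all genes as a blue line. The points of the small-intestinal enterocyte and Paneth lists reach to 4.23 and 3.39, and the liver list lies mostly left of the line.

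A chemokine and a lymphocyte protease were among the genes without overlap. Ccl25, a chemokine that draws lymphocytes to the small intestine, was between 8.39 and 11.21 in the high set (median 9.58) and between 5.99 and 7.81 in the low set (median 7.30). The sets did not overlap, and the difference of 2.69 (SE 0.38) was 6.46-fold, with 3.01 in the water series and 2.31 in the DMSO series. Gzma, granzyme A of cytotoxic lymphocytes, was between 7.71 and 10.41 (median 8.24) against 6.34 and 7.10 (median 6.81). Ctr2-2 (10.41) and Ctr1-2 (9.58) were the highest, and the difference of 1.76 (SE 0.33) was 1.51 without Ctr2-2. The only other measured gene of the T cell and intraepithelial lymphocyte list, Ccl5, was 0.45 higher, so 2 of 22 genes of that list were read.

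Reg3g encodes an antibacterial lectin of the intestinal epithelium. In the high set 8 arrays were between 11.39 and 13.57, and all 8 were above the low set, which lay between 7.03 and 11.23. Ctr2-2, the array with the highest Defa1, had 4.40, from a deposited intensity of 3, while Ctr1-2 and STL-3, next in the order, had 11779 and 4963. The difference was 2.77 (SE 1.10) with that array and 3.68 without it.

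Further genes over 1 higher were chosen for mention after their values had been seen. Lgals2, the sugar-binding galectin 2, was between 7.83 and 10.68 in the high set and between 3.47 and 7.90 in the low set, with Fru-2 (7.90) just above CGA-3 (7.83). Its difference was 3.52 (SE 0.58), 11.5-fold. The 3.47 was that of Ctr1-1, where the deposited Lgals2 was 53, against 12 to 61 over the low set. Bcl2l15, of the Bcl-2 family, was 3.40 higher (SE 0.69), and 2.84 with the lone low value of Ctr1-1 set to missing. That value was low after normalization only: as deposited it was 46, against 19 to 102 over the low set. Spink1, a trypsin inhibitor, was 2.55 higher (SE 0.51). Slc26a6, an anion exchanger, was 1.65 higher (SE 0.61), and Upp1, uridine phosphorylase, 1.46 (SE 0.37). Apol10a was 1.17 higher (SE 0.39). Suox, the mitochondrial sulfite oxidase, came in by the rule, since its sets did not overlap (8.82 to 10.38 against 7.78 to 8.63), with a difference of 1.43 (SE 0.20) or 2.69-fold. Arl6ip6 counted among the 20 through 1 array only: all values but that of Fru-2 (4.99) were near 12.9, and the difference of 1.06 became -0.08 without it.

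The high arrays were not alike. Over 7 genes (Fabp6 and the 6 without overlap), Ctr1-2 was among the top 3 of the 9 high arrays for 7 genes, and Ctr2-2 and Chic-2 for 6 genes each. The 6 were picked from this contrast, and every kept row has at least 300 on Ctr1-2. The ranks of Ctr1-2 are thus not read as a trait of that array. As deposited, Slc3a1 was 385 on Ctr1-2, under 387 on Fru-3 and 516 on Chic-2. Chic-1 and CGA-3 were among the bottom 3 for 6 genes each. STL-3 had the third highest Defa1 but was among the top 3 for 1 of these genes and among the bottom 3 for 2. The defensin probes themselves fell into 2 patterns. For Defa1, Defa2, Defa3, Defa23, Defa36 and Defa40, Chic-1 stood between 10.13 and 12.88, far above the low arrays other than Fru-2. For Defa31, Defa-rs2, Defa-rs4 and Defa-rs10 it stood between 7.18 and 9.19, close to the highest low arrays, and so did CGA-3 between 6.73 and 9.33. Ctr1-2, in contrast, had 14.86 for Defa1 and 14.38 for Defa31. Defa-rs4 was the defensin whose sets overlapped, through CGA-3 (6.73) under Fru-2 (6.80). Defensin genes are close copies of each other, so probes of this family may read more than 1 gene.

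Chic-1 was also uneven outside the defensins. Its Mptx1 was 10.20, the second highest of the 16 arrays, while its Spink1 was 6.91, the lowest of the high set, and its Apoa1 was at the level of the low arrays. CGA-3 had the lowest Fabp6, Lgals2, Mptx1 and Suox of the high set, and its Anpep, at 11.08, was above those of Ctr2-1 and Chic-1. Fru-2, on the other side of the limit, had a raised normalized Fabp6, Lgals2 and Spink1 (8.37, against at most 6.81 on the other low arrays). Its Pla2g2a (6.29), Anpep (8.73) and Gzma (7.06) lay among the low arrays or at their upper end. As deposited, Fru-2 was not above the other low arrays. Its Fabp6 was 213, as on STL-1, its Lgals2 was 38 against 61 on STL-1, and its Spink1 was 54 against 209 on Ctr1-1. Without Fru-2, 12 genes other than defensins had no overlap in place of 6, and all 6 were among them.

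**Figure D4:**
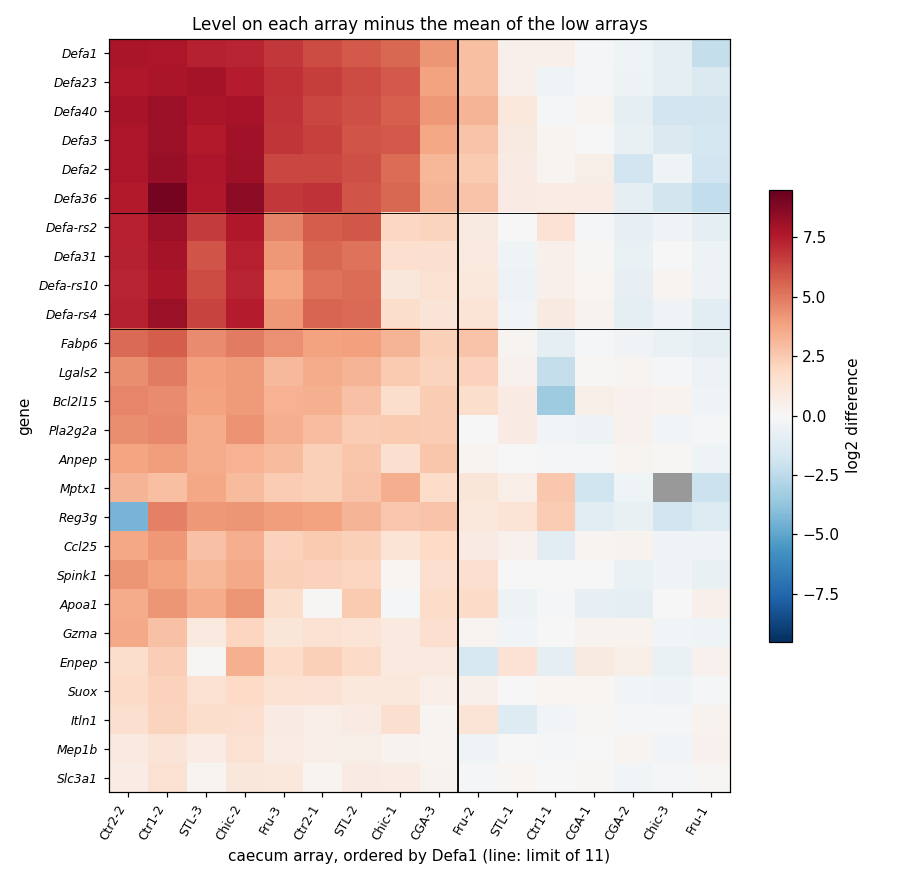
The log2 level of 26 genes on each caecum array minus the mean of the 7 low arrays, with arrays ordered by Defa1, the black vertical line at the limit of 11 and a missing value in grey. The lines across part the defensins that stay high on Chic-1, those that do not, and the other genes. These other genes do not fall evenly from Ctr1-2 to CGA-3, and Mptx1, for example, is higher on Chic-1 than on Ctr1-2. Fru-2 is warm for the defensins, Fabp6 and Lgals2.

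Within each series fewer arrays had to separate. Within the water series (4 high and 4 low arrays) 43 genes (1.14%) had all high arrays above all low arrays, 33 of them other than defensins, and 69 (1.83%) had all below. Within the DMSO series (5 and 3) 74 genes (1.96%) had all above, 64 of them other than defensins, and 149 (3.94%) all below. The 33 and 64 genes shared 10, which was 30.3% of the first list and 15.6% of the second, and both hold the 6 genes named above, as the whole contrast fixes.

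In the other direction, 7 genes were over 1 lower among rows that all have at least 300 on Ctr1-2, and 14 were without that array. Most of those named were dim or rested on single arrays. Rn18s, the 18S ribosomal RNA, had the most negative difference, -1.56 (SE 1.34). Its level was 2.78 on Ctr2-2, from a deposited intensity of 1, and between 12.87 and 14.16 on the other high arrays, against 11.17 to 15.37 in the low set. Without that value the difference was -0.34. Sec61a1, a subunit of the channel for secreted proteins, had the same form. It was 3.88 on Ctr2-2 and between 8.98 and 10.42 on the other high arrays, and its difference of -0.97 became -0.30 without it. Thus Ctr2-2 had a near-empty reading for Rn18s, Sec61a1 and Reg3g at once.

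Nagk, a kinase of N-acetylglucosamine, was lower on the normalized values: it was between 4.64 and 8.88 in the high set (median 6.79) and between 7.31 and 8.67 in the low set (median 7.79). Ctr1-2 (8.88), the array with no value under 300, was above every low array, and 7 of the other 8 high arrays were under the lowest low array. The difference was -1.41 (SE 0.49), -1.37 in the water series, -1.40 in the DMSO series and -1.16 without Ctr2-2. As deposited, Nagk was 6 on Ctr2-2 and between 73 and 428 on the other high arrays, against 62 to 614 in the low set. The lower level is thus given for the normalized values only. Gm9757 (-1.34, SE 0.53) was lower mainly in the water series, at -2.33 against -0.37. As deposited, Gm9757 was between 133 and 313 in the high set and between 83 and 676 in the low set. Marchf1, a ubiquitin ligase that acts on major histocompatibility molecules, was between 4.87 and 8.82 against 6.65 and 8.83, a difference of -1.26 (SE 0.50) that was -0.70 without the 4 arrays of low median. On the values as deposited, Marchf1 was higher in the high set, by 0.23. Rnu2-10, a U2 small nuclear RNA, was -1.18 (SE 1.11) and had opposite signs in the series.

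**Figure D5:**
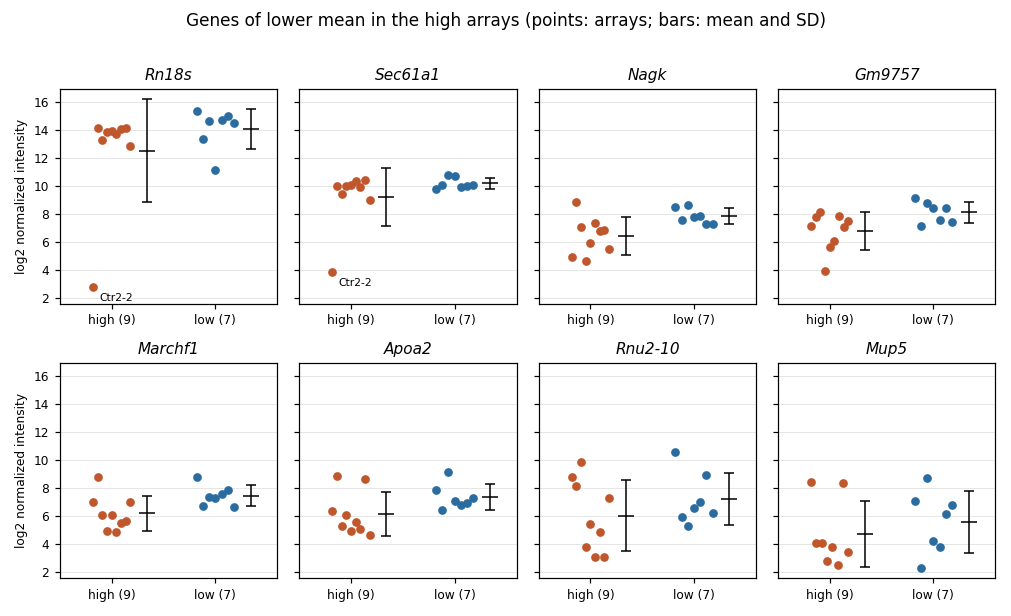
Log2 normalized intensity of 8 genes with a lower mean in the high set, by array (points, in falling order of Defa1 within a set), with the mean and SD of the set. Rn18s varies by a few log2 units and Sec61a1 is level but for Ctr2-2 in the high set, and the other genes overlap between the sets.

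Of the transcripts made by the liver, those named had lower means in the high set on the normalized values, and 1 low array carried much of it. Apoa2, an apolipoprotein, was between 4.64 and 8.84 in the high set (median 5.59) and between 6.41 and 9.12 in the low set (median 7.08). Ctr1-2 (8.84) and Chic-1 (8.66) were the highest of the high set and Ctr1-1 (9.12) of the low set. As deposited, Apoa2 was between 164 and 475 on Ctr1-2, Chic-1, Chic-2 and Ctr2-1 of the high set. It was 824 on Ctr1-1 and 295 on Fru-1 of the low set, and between 26 and 75 on all other arrays. Alb was between 197 and 1589 on the same arrays and between 3 and 22 on the others. The difference of Apoa2 was -1.21 (SE 0.62), and -0.94 without Ctr1-1. The pseudogene Mup-ps16 was -1.18 (SE 1.15) and Mup5, a major urinary protein, -0.87 (SE 1.18), both with spreads wider than their differences. Ahsg was -0.81 (SE 0.87) and Alb, serum albumin, -0.64 (SE 1.04). Without Ctr1-1 these became -0.54 for Mup-ps16, -0.36 for Mup5, -0.37 for Ahsg and -0.02 for Alb. Of the 30 genes of the liver list 15 were measured, 1 had a difference above 0, 1 was over 1 lower and 0 did not overlap. Over all genes, 0.185% were over 1 lower. The median of the list was -0.26 over all arrays and 0.11 without Ctr1-1, and it was 0.02 within the water series and -0.06 within the DMSO series. On the values as deposited Apoa2 (0.17) and Mup5 (0.99) were higher in the high set, and so were the mean log2 values of Alb and Ahsg. The lower levels of these genes are thus given for the normalized values only. Probes of the Mup family read close copies and cannot be assigned to single genes with certainty.

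Markers of the large bowel and of other cells did not part the sets. Of 31 measured genes of the caecum and colon list, 0 were over 1 apart in either direction, the median was 0.02, and Car1 was 0.11 higher (SE 0.26). Over all genes, 0.794% were over 1 higher and 0.185% over 1 lower. Clca4b, at 0.72 (SE 0.27), was the highest of the list and Sycn, at -0.38, the lowest. The 13 measured goblet cell genes had a median of 0.05 and went from -0.33 (Spdef) to 0.40 (Agr2). The 15 smooth muscle genes had a median of 0.02, with Tpm1 at 0.90, which was 0.12 with a lone low value of Fru-2 set to missing. The 14 fibroblast and matrix genes (-0.03), the 7 plasma and B cell genes (-0.05), the 10 cell cycle genes (0.02), the 8 stress genes (-0.02) and the 5 macrophage and granulocyte genes (-0.04) had medians near that of all genes, -0.04. The 13 interferon and antigen presentation genes had a median of 0.16, with Cd74 and Igtp at 0.51. As a mean log2 level over the measured genes of a list, the small-intestinal enterocyte list was between 9.77 and 10.6 on the high arrays and between 9.35 and 9.79 on the low arrays, and the Paneth list other than defensins between 9.26 and 10.8 and between 8.22 and 9.61. The caecum and colon list was between 10.9 and 11.3 on the high arrays and between 10.8 and 11.3 on the low arrays. The part of a varying share of small-intestinal cells in these differences was not tested.

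The ileum and liver arrays of the same mice, matched by group and number, were not used to make the split and could be tested. In ileum 0 of 5275 genes (0%) passed an adjusted p of 0.05 between mice of the high and low caecum sets in limma. There were 208 genes at an unadjusted p under 0.05, where about 264 are expected by chance. In liver it was 0 of 4120 genes (0%), with 21 at an unadjusted p under 0.05, where about 206 are expected by chance. In ileum, Suox differed by -0.10 (SE 0.11, adjusted p = 0.969), Spink1 by 0.01 (SE 0.10, adjusted p = 0.991) and Slc26a6 by 0.04 (SE 0.12, adjusted p = 0.981). Defa2 differed by 0.02 (SE 0.09), Defa3 by 0.01 (SE 0.08), Defa23 by -0.10 (SE 0.09) and Defa36 by 0.00323 (SE 0.0855), with adjusted p from 0.969 to 0.998. Defa1 and Fabp6 were not among the ileum genes read. The gene names of these tables are less sure: repeat spots of a probe had a median SD of 1.05 in ileum and 1.11 in liver, near the 1.56 and 1.71 over all spots, while in caecum it was 0.165 against 1.56.

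Within the labelled diet groups the genes of the split had wide spreads. Defa1 ranged over 7.22 log2 units between the Ctr1 arrays, 8.19 among the Chic arrays and 8.94 among the Fru arrays. Fabp6 had SDs between 1.08 (Ctr2) and 4.70 (Ctr1) within a group, and Anpep between 1.01 and 2.90. In limma over all 6 groups, 0 of 3777 genes were called for Chic against Ctr1 (0%), 1 for Fru against Ctr1 (0.0265%), 0 for CGA against Ctr2 (0%) and 0 for STL against Ctr2 (0%). At an unadjusted p under 0.05 there were 104, 269, 131 and 108 genes, where about 189 are expected by chance in each contrast. The called gene was Gla, alpha-galactosidase A, 3.11 higher under Fru (SE 0.41, adjusted p = 0.0124 in limma), and it was called neither on the values as deposited nor without Fru-3. Both Ctr2 arrays and 1 of 3 CGA arrays were high, and in that contrast Defa1 differed by -5.78 (SE 2.99), Fabp6 by -4.00 (SE 2.07), Pla2g2a by -2.90 (SE 1.58) and Anpep by -2.11 (SE 1.42). None of these 4 passed the threshold, with adjusted p of 1.00 in limma. Chic against Ctr1, with both kinds of array in each group, gave 0.06 (SE 2.07) for Fabp6 and -0.31 (SE 1.42) for Anpep. The arrays of CGA and STL share the Ctr2 controls, and those of Chic and Fru share Ctr1.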

How the data were processed

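RNA of 16 mice was read on 48 one-colour Agilent arrays, and the 16 caecum arrays are described here. The authors deposited 1 table per tissue of scanner intensity on a linear scale, as whole numbers with a probe name and symbol. The methods name GenePix Pro and quantile normalization, and the submitters' processing notes name Agilent Feature Extraction. The array medians differ, so the deposited values were not quantile-normalized between arrays, as the planned design had assumed. Here log2 values were brought to a common distribution (quantile normalization by limma) within each tissue of 16 arrays, which assumes like distributions on all arrays and stretches dim ones. In caecum Ctr1-2, with no value under 300, departs from that assumption. In caecum 6214 rows were read, all of those kept with at least 300 on Ctr1-2, 227 control rows were left out, 878 rows had no symbol, 24 values at or below 0 were set to missing, and 35 lay near the limit of the scanner. Repeat spots entered as their mean, and each gene was read from its brightest probe on average. RefSeq accessions and unique synonyms gave current symbols for 119 rows. No background values were used, and the number of arrays limits the precision. The mice are separate samples by their labels.

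The high and low sets were described with no test. Fisher's exact test was used for the labels, and limma 3.58.1 under R 4.3.3 (lmFit, eBayes, two-sided, Benjamini-Hochberg over all genes of a tissue) for ileum, liver and the diet contrasts, after a check on simulated data. The members and the gene lists were chosen with earlier results of these data known. The genes named are those without overlap between the sets outside the defensin family (up to 15 in each direction, or, if fewer than 5 qualified, the 10 with the largest difference), the measured members of the enterocyte, Paneth and large-bowel lists, the 2 to 4 members of another list with the largest difference, and up to 5 genes called in a test. Others were added after their values were seen, as stated, and some genes of the rule enter the counts and are not reported here. Alternatives were other scaling, other probes per gene, no dim probes, arrays left out, each series alone, other limits and blocks. Setting lone low values to missing was chosen after seeing the data. Plots were made in matplotlib 3.10.9 (Python 3.11.15).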

Additional observations from a re-analysis of the deposited data

Results flagged for a closer look

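In 23 genes the highest and lowest array of each set (46 groups) was compared with its nearest neighbour by Dixon's criterion for a single value apart from the others, as the gap over the whole range. In 6 groups it passed. Chance gives about 1 in 20 in groups not chosen for their values, a rate that cannot be applied here, since Rn18s and Sec61a1 were named only through such a value and Bcl2l15 and Spink1 after their values were seen. On the normalized values of the low set, Fru-2 was the highest for Fabp6 (0.665 of the range) and for Spink1 (0.678), and Ctr1-1 was the lowest for Bcl2l15 (0.601). As deposited, Fabp6 on Fru-2 was 213, as on STL-1, and Spink1 on Fru-2 was 54, within 13 to 209 in the low set. Bcl2l15 on Ctr1-1 was 46 as deposited, within 19 to 102. In the high set, Ctr2-2 was the lowest for Reg3g (0.762), Rn18s (0.887) and Sec61a1 (0.779), on deposited intensities of 3, 1 and 2.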

How the results depend on the processing

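Of 627 values under the alternatives for 23 genes (Fabp6, the 6 without overlap, the lower genes of the rule, and Lgals2, Bcl2l15, Spink1, Reg3g, Apoa1 and Mptx1), 607 kept their direction and size, 12 moved by more than the spread between arrays and 8 reversed. The reversed ones among these were Marchf1 (0.23), Apoa2 (0.17), Rnu2-10 (0.41) and Mup5 (0.99) on the values as deposited, Rnu2-10 (0.13) and Mup5 (0.71) with a common 75th percentile, and Rnu2-10 (0.28) and Mup5 (0.045) in the DMSO series alone. The cause was not tested. Genes outside these 23 were not counted, and some of them turned sign, such as Arl6ip6 and Slc10a2 as given with their values. Alb was 0.22 with the replicate block, and Car1 was 0.31 in the water series and -0.09 in the DMSO series. On the values as deposited, 60 genes were over 1 higher and 2 over 1 lower, and Fru gave 0 calls. With a common 75th percentile, 24 genes had all high arrays above all low ones, and 3 were over 1 lower. With the dimmest probes left out, which tests fewer genes, 9 did not overlap, 13 were over 1 higher, 1 over 1 lower, and Chic gave 1 call. Without the 4 arrays of low median, 25 genes had all high arrays above and 36 all below the low ones. In the water series alone these were 43 and 69, with 50 over 1 higher and 28 lower, and in the DMSO series 74 and 149, with 17 over 1 lower. These settings separate fewer arrays. With a Defa1 limit of 10, 2 genes had all high arrays below the low ones, and with a limit of 12, 1 did. At a limit of 10, 3 of the 6 genes kept no overlap (Anpep, Ccl25 and Suox), and at 12, 1 did (Suox).

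Leaving out 1 array at a time gave 15 to 22 genes above without overlap (22 without Fru-2), 0 to 2 below, 30 to 34 over 1 higher and 6 to 14 lower (14 without Ctr1-2). Calls were between 0 and 40 for Chic and 0 and 44 for Fru (both highest without Ctr1-1), 0 and 22 for CGA and 0 and 20 for STL (both highest without Ctr2-1), where the lone control is assumed to vary like the other groups. Ileum and liver stayed at 0 to 0 calls. With the number of the mouse as a replicate block, 36 genes were over 1 higher and 11 over 1 lower, and Fru gave 0 calls. The mice of different groups share only a number, and the block changed no other count of calls.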
